A study of Mus musculus with 6 samples.

Results

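The epidermal growth factor (EGF) receptor family and its ligands were followed in kidney glomeruli of mice with and without a podocyte deletion of Parva. The set was chosen by name, with earlier results of these data known. It held 4 receptors, Egfr, Erbb2, Erbb3 and Erbb4, and 5 ligands, Hbegf, Egf, Areg, Btc and Tgfa, each found by its NCBI Gene identifier. All 9 were present among the 27179 features of the deposited table. Both groups were 9-week-old male mice on a mixed C57BL/6 background whose Parva alleles were floxed (Parva-fl/fl), and the labels note mild proteinuria. The 3 KO mice (KO-1 to KO-3) also carried a Cre recombinase driven by a podocyte promoter, and the 3 WT mice (WT-1 to WT-3) carried no Cre. Since no Cre-only group was used, the deletion and the Cre transgene cannot be told apart.

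The EGF receptor and its relatives are receptor tyrosine kinases that pair on the cell surface and signal through the RAS-MAPK, PI3K-AKT and STAT routes. EGF, TGF-alpha and amphiregulin bind EGFR, whereas HB-EGF and betacellulin bind both EGFR and ERBB4. ERBB2 has no known ligand of its own, and ERBB3, a neuregulin receptor with little kinase activity, signals through its partners. The ligands are made as membrane-anchored precursors and are released by proteases of the ADAM family. In the kidney, EGF is a product of the thick ascending limb and distal convoluted tubule, while HB-EGF is also made by glomerular cells.

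Among the receptors, the transcripts of Egfr and Erbb3 were higher in RNA of KO glomeruli, and among the ligands that of Hbegf was lower. All 18 proximal tubule markers were called higher too, and their part in these differences was not tested. The mean normalised count was 2.57 times the WT mean for Egfr, 2.50 times for Erbb3 and 0.683 times for Hbegf. Of the 9 members, 7 (3 receptors and 4 ligands) reached a mean of 10 normalised counts over the 6 libraries and were tested. With limma on log2(normalised count + 1) and Benjamini-Hochberg adjustment over all 13946 genes tested, 3 of the 7 passed the threshold of 0.05, against 22.1% of all genes tested. The 2 higher members stand against a background of 13.5% of genes called higher, and the 1 lower member against 8.58% called lower. The KO and WT values did not overlap for 6 of the 7 members, 4 higher and 2 lower in KO, where 45.1% of all genes tested had groups apart. A count model (edgeR) on the whole reads recovered from the table called the same 3 members and 20.4% of all genes. In limma, all 3 calls were lost with a replicate block (adjusted p = 0.0868 for each). They were also lost without the variance trend (adjusted p of 0.0539 to 0.0559). Those fits called 0 and 1 of all genes. With so many genes apart between the genotypes, the share of members called is no result about the family as a group.

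**Figure D1:**
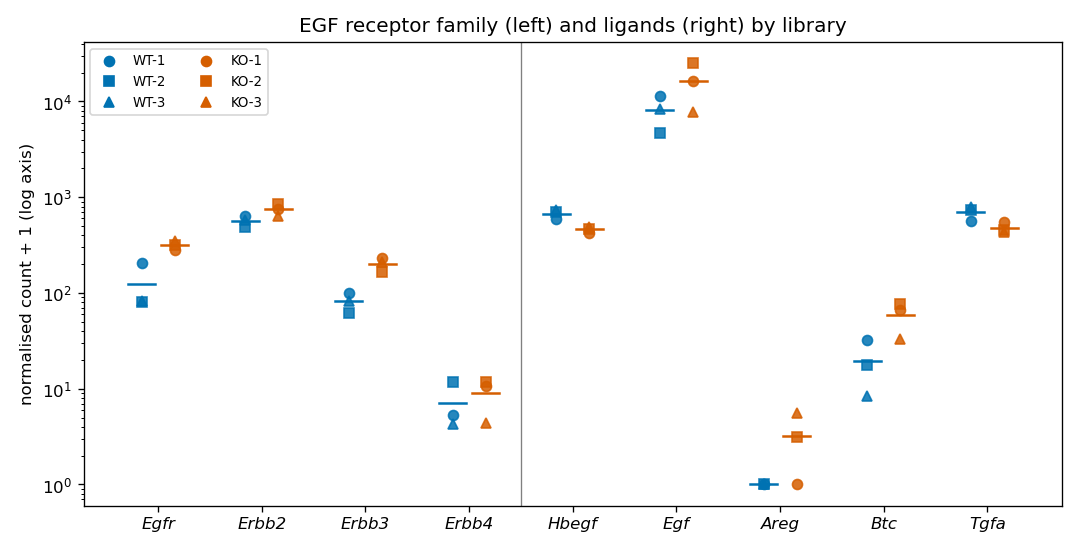
Normalised counts plus 1 on a log axis for the 4 receptors (left) and 5 ligands (right), 1 marker per library with WT in blue and KO in orange and the group mean as a bar. Egfr and Erbb3 lie higher and Hbegf lower in all 3 KO libraries, whereas KO-3 lies within the WT values of Egf.

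The libraries held 11886828 to 20552984 whole reads assigned to genes, so that 1 read was worth about 1 normalised count. Parva itself, the check of the labels, had 6585, 7519.7 and 7889.8 normalised counts in WT and 2288, 2338 and 1942 in KO, with no overlap. A set of 10 genes, each high in a single library, took 17.4% to 32.4% of the reads in the WT libraries and KO-1 but 0.241% and 0.239% in KO-2 and KO-3. The 12 podocyte markers were detected in every library and summed to 242319 to 299553 normalised counts in WT and 163533 to 239573 in KO. All 18 proximal tubule markers were called higher in KO, with a median log2 fold change of 1.53, and their sum was 65833 to 149149.7 in WT and 198477 to 286113 in KO. Of the 12 markers of thick ascending limb and distal convoluted tubule, 3 were called higher and none lower, with a median of 1.40 and sums of 10453 to 35822 in WT and 34903 to 74931.9 in KO. All 10 endothelial and 8 of 9 mesangial markers were called lower, as were 5 of the 12 podocyte markers, with medians of -0.68, -0.79 and -0.66. Of 8 parietal epithelial markers 4 were called higher and 1 lower, of 10 collecting duct markers 3 higher, of 11 immune markers tested none, and of 2 erythroid markers tested 1 lower. The median over all genes tested was -0.01. In bulk glomeruli, fewer cells of a type, less RNA per cell and a larger share of tubule RNA in the library cannot be told apart. The part of these cell mixtures in the results on single members was not tested.

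The regions around the transcription starts are shown for Egfr and for Egf and Tgfa, ligands of that receptor. These ligands differed from each other in level, spread and sign of the log2 difference, although neither log2 difference passed the main test. RefSeq windows were matched for 7 of the 9 members, and none was used for Hbegf and Erbb3. Each runs 5′ to 3′ on the gene's strand from 250 bases before to 50 bases after the start in RefSeq's GRCm38.p6 table, and capitals mark matches to a searched motif. The windows are chr11:16751953-16752252 on the plus strand for Egfr, chr3:129755273-129755572 on the minus strand for Egf, and chr6:86194972-86195271 on the plus strand for Tgfa, around a start within the span of that gene.
Egfr: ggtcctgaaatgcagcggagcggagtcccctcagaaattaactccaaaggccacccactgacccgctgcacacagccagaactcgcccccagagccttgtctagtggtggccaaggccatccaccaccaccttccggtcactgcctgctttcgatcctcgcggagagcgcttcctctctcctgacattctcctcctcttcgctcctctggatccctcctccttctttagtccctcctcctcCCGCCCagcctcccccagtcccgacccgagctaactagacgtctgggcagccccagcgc
Egf: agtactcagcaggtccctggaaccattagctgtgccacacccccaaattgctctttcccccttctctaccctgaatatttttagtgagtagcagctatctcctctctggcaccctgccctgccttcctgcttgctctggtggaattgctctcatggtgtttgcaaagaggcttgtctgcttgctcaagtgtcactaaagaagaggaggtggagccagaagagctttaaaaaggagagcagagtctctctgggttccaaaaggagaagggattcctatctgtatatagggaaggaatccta
Tgfa: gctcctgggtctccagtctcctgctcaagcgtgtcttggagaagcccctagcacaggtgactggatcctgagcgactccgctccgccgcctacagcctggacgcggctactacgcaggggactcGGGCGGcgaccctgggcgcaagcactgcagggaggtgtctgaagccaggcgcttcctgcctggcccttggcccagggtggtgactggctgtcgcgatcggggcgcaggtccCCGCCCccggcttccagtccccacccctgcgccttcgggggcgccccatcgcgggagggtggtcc
The motifs were the TATA box TATAAA, the GC box GGGCGG, the CCAAT box CCAAT and the AP-1 site TGANTCA, each on both strands. They occur in 13.6%, 35.7%, 37.4% and 7.81% of the 32851 windows in the table. Egfr holds 1 GC box, on the minus strand at -9 to -4 from the start, and its window is 62.3% G and C. The Tgfa window holds 2 GC boxes, at -126 to -121 and at -15 to -10, and is 70.7% G and C. The Egf window shown has 49.0% G and C, where the median window has 52.7%. RefSeq gives Egf a second window, at chr3:129725037-129725336 with 52.3% G and C, and none of the 4 motifs matched in either. Among the other windows, that of Erbb2 holds a CCAAT box at -41 to -37, and that of Areg a TATA box at -31 to -26 with 2 GC boxes. A match describes letters in the window, and these data hold no measurement of binding.

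Egfr (Gene ID 13649, mm10 chr11:16752203-16913907, plus strand) encodes the receptor for EGF, TGF-alpha and the other EGFR ligands. In the order of replicate numbers, kept for all values below, its normalised counts were 204, 79.2 and 82.3 in WT and 279, 316 and 345 in KO. All 3 KO libraries lay above all 3 WT libraries, and WT-1 stood apart from the other WT libraries towards the KO values. The mean was 122 ± 71.3 in WT and 313 ± 32.9 in KO (SD, n = 3 each). The log2 fold change was 1.5 (SE 0.35, 95% interval 0.67 to 2.32), with an adjusted p of 0.0311 in limma and 0.0416 in edgeR. These levels rest on 80 to 188 reads per WT library and 292 to 315 per KO library.

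Erbb3 (Gene ID 13867, chr10:128567523-128589635, minus strand), the neuregulin receptor, showed the same order of groups. It had 99.9, 60.4 and 81.5 normalised counts in the WT libraries and 233, 163 and 209 in the KO libraries. The lowest KO library, KO-2, was above the highest WT library, WT-1. The mean moved from 80.6 ± 19.8 to 202 ± 35.3 (SD, n = 3 each), a log2 fold change of 1.33 (SE 0.23, 95% interval 0.79 to 1.86, adjusted p = 0.0286 in limma).

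Erbb2 (Gene ID 13866, chr11:98412484-98437716, plus strand), the ligandless partner, had the highest count of the receptors in every library. Its normalised counts were 631, 489.9 and 574 in WT and 750.4, 859 and 643 in KO. The groups did not overlap, yet the gap between WT-1 and KO-3 was narrow. The means were 565 ± 71.0 and 751 ± 108 (SD, n = 3 each), and the log2 difference of 0.41 (SE 0.14, 95% interval 0.08 to 0.74) did not pass the test (adjusted p = 0.0757 in limma and 0.0771 in edgeR). Its exons share 9 bases with Mien1 on the other strand, 0.173% of its exon length, and the strand setting of the counting is not known.

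Erbb4 (Gene ID 13869, chr1:68031884-69108576, minus strand), the receptor for HB-EGF, betacellulin and neuregulins, was close to the counting floor. It had 4.35, 10.9 and 3.29 normalised counts in WT and 9.75, 10.8 and 3.40 in KO, which are 3 to 11 reads per library. The groups overlapped, the gene fell under the minimum mean, and the two-sided exact permutation p was 0.8. A difference in Erbb4 was not detectable at this depth.

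Hbegf (Gene ID 15200, chr18:36504927-36515805, minus strand) encodes HB-EGF, the heparin-binding ligand. It had 596, 698 and 729 normalised counts in WT and 425, 469.9 and 486 in KO. Every KO library lay below every WT library, and the values within each genotype were close to each other. The mean went from 674 ± 69.4 to 461 ± 31.7 (SD, n = 3 each). Hbegf fell by 0.55 on the log2 scale (SE 0.11, 95% interval -0.81 to -0.29, adjusted p = 0.0286 in limma and 0.0326 in edgeR).

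Tgfa (Gene ID 21802, chr6:86195038-86275744, plus strand), encoding TGF-alpha, lay near Hbegf in level and in direction of the difference, without passing the test. Its normalised counts were 562, 738 and 797 in WT and 554, 448 and 435 in KO. The groups were apart only narrowly, since WT-1 and KO-1 nearly met. The means were 699 ± 122 and 479 ± 64.9 (SD, n = 3 each), a log2 difference of -0.54 (SE 0.16, 95% interval -0.91 to -0.16). The adjusted p was 0.0504 in limma and 0.0502 in edgeR, at the threshold. It was 0.0490 and 0.0422 in limma with TMM and upper quartile scaling and 0.0236 in DESeq2. In limma it was 0.0823 without the variance trend and 0.134 with a replicate block. Leaving out WT-1 gave 0.00873 in limma, and leaving out WT-2, WT-3, KO-2 or KO-3 gave 0.125 to 0.159. Its exons share 118 bases with Gm43917 on the other strand, 1.82% of their length.

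Egf (Gene ID 13645, chr3:129677574-129755322, minus strand) was the most abundant ligand transcript in every library, and its values spread widely within each genotype. It had 11334, 4692 and 8401 normalised counts in WT and 16298, 24949.5 and 7773 in KO. KO-3 was below WT-1 and WT-3, so the groups overlapped. The means of 8142 ± 3328 and 16340.2 ± 8588 (SD, n = 3 each) gave a log2 difference of 0.94 (SE 0.47, 95% interval -0.16 to 2.04), which did not pass the test (adjusted p = 0.177 in limma). Its exons share 500 bases with 6330410L21Rik on the other strand, 4.43% of its exon length, and that gene had 18.8 to 39.9 normalised counts. A further 607 bases, 5.38%, overlap Gm42697, for which no value was used here.

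Btc (Gene ID 12223, chr5:91357261-91402994, minus strand) encodes betacellulin. Its normalised counts were 31.5, 16.8 and 7.41 in WT and 65.6, 75.8 and 31.8 in KO. The groups touched, with KO-3 just above WT-1, and WT-3 rested on 9 reads. The means were 18.6 ± 12.1 and 57.7 ± 23.0 (SD, n = 3 each). The log2 difference of 1.70 (SE 0.55, 95% interval 0.41 to 2.99) was the widest of the tested members in both size and interval and did not pass the test (adjusted p = 0.0627 in limma and 0.0665 in edgeR), although it passed in DESeq2 (0.0178).

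Areg (Gene ID 11839, chr5:91139599-91148432, plus strand), encoding amphiregulin, had 0 reads in every WT library and in KO-1, 2 reads in KO-2 and 4 reads in KO-3. A count of 0 allows up to 3 reads, which is 2.47 to 3.26 normalised counts in the WT libraries. The KO mean of 2.23 lies below that limit, so no fold is given. These floors cover counting error only.

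**Figure D2:**
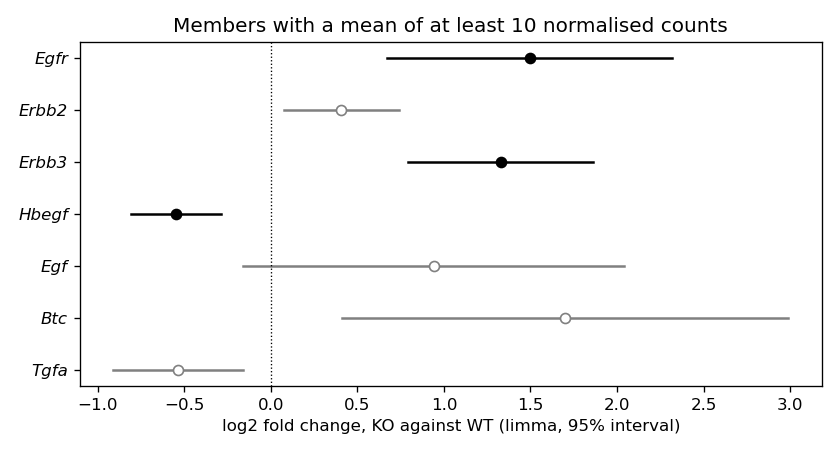
Log2 fold change of KO against WT for the 7 members tested (limma), with 95% intervals as lines; filled black points passed the adjusted threshold of 0.05 and open grey points did not. The interval of Egf includes 0, and those of Erbb2, Btc and Tgfa exclude 0 before adjustment over all genes.

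The calls depended on which library was left out, both for the members and for all genes tested. Without WT-1, the WT library nearest to KO, 6 of the 7 members passed, with adjusted p-values in limma of 0.000538 for Egfr, 0.00295 for Erbb3, 0.00536 for Hbegf, 0.00873 for Tgfa, 0.0158 for Btc and 0.0410 for Erbb2. That fit called 4295 of all 13954 genes it tested. Without KO-1, Erbb3 (0.0441) and Hbegf (0.0481) passed and Egfr did not (0.0529). Here 2063 of all 13950 genes tested were called. Leaving out WT-2, WT-3, KO-2 or KO-3 ended all 3 calls, with adjusted p-values of 0.0695 to 0.111. Among all genes, the calls then left numbered 1, 0, 4 and 3, in the same order. The gains and losses of calls thus went with those of all genes and are no result about the members. The log2 fold changes over the 6 fits that each left out a library stayed at 1.26 to 1.94 for Egfr, 1.14 to 1.5 for Erbb3 and -0.63 to -0.49 for Hbegf.

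Levels of different genes were compared per kilobase of annotated exon (GENCODE M21), as normalised counts per kilobase with SD over n = 3. In WT glomeruli, Egf led with 722 ± 295, followed by Hbegf with 139.5 ± 14.4, Erbb2 with 108 ± 13.6 and Tgfa with 108 ± 18.9. Lower down came Erbb3 with 13.4 ± 3.29, Egfr with 10.8 ± 6.30, Btc with 4.11 ± 2.69 and Erbb4 with 0.50 ± 0.33, while Areg was at 0. The ranges of Erbb2 and Tgfa overlapped, as did those of Erbb3 and Egfr, and the ranges of the other neighbours were apart. In KO glomeruli the order was Egf (1449 ± 762), Erbb2 (144 ± 20.7), Hbegf (95.3 ± 6.55), Tgfa (73.8 ± 10), Erbb3 (33.5 ± 5.86), Egfr (27.7 ± 2.91), Btc (12.8 ± 5.10), Areg (1.84 ± 1.87) and Erbb4 (0.65 ± 0.32). Erbb2 thus stood below Hbegf per kilobase in WT and above it in KO, with ranges apart in each. In WT they were apart only narrowly, with Erbb2 at up to 121 and Hbegf from 123. By normalised count, Erbb2 lay above Hbegf in WT-1 (631 against 596) and below it in WT-2 and WT-3. The order in WT thus depends on the exon lengths used. The ranges of Erbb3 and Egfr, and of Areg and Erbb4, overlapped in KO.

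Glomerular Hbegf and tubular Egf were set against each other within each library, a ratio that does not depend on scaling. The normalised count of Egf was 19.0, 6.73 and 11.5 times that of Hbegf in the WT libraries and 38.3, 53.1 and 15.98 times in the KO libraries. KO-1 and KO-2 lay above all WT libraries, and KO-3 lay between WT-3 and WT-1. The log2 ratio was 3.51 ± 0.75 in WT and 4.99 ± 0.90 in KO (SD, n = 3 each). The difference of 1.49 had a two-sided exact permutation p of 0.2, where 0.1 is the smallest that 3 against 3 libraries allow. Leaving out single libraries gave differences of 1.11 to 1.99.

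Markers of tubule and podocyte moved with several members, and the differences below, on the log2 scale, were chosen after the values were seen and carry no test. Egfr minus the mean of the 18 proximal tubule markers was -4.78, -4.97 and -4.90 in WT and -4.73, -5.13 and -4.89 in KO. These values overlapped, with means of -4.88 ± 0.10 and -4.92 ± 0.20, a difference smaller than the spread within each genotype. Erbb3 minus the same mean was -5.80, -5.36 and -4.91 in WT and -4.99, -6.07 and -5.62 in KO. It overlapped too, at -5.36 ± 0.45 and -5.56 ± 0.55. The log2 difference of Erbb2 (0.41) was smaller than the median of the proximal markers (1.53), so Erbb2 minus their mean is lower in KO by construction. Erbb2 minus their mean was -3.16, -2.36 and -2.11 in WT and -3.30, -3.69 and -4.00 in KO, without overlap. KO minus WT was -1.12 for Erbb2 on that scale, and -0.99 against the distal marker mean, where the groups overlapped. For Btc minus the proximal mean, KO minus WT was 0.17, with overlap. Egf minus the mean of the 12 thick ascending limb and distal convoluted tubule markers was 3.60, 3.95 and 4.08 in WT and 3.61, 3.47 and 3.18 in KO. WT-1 and KO-1 were level on that scale, and KO-3 was the lowest. Hbegf minus the mean of the 12 podocyte markers was -4.21, -4.24 and -4.21 in WT and -4.59, -4.11 and -3.91 in KO, a wider spread in KO on both sides of WT. Tgfa minus the podocyte mean was -4.30, -4.16 and -4.09 in WT and -4.21, -4.18 and -4.07 in KO, again overlapping. Against other glomerular cells the values lay somewhat higher in KO. Relative to the mean of the 10 endothelial markers, KO minus WT was 0.15 for Hbegf and 0.16 for Tgfa, with overlap in both. Relative to the mean of the 9 mesangial markers it was 0.25 for Hbegf, with overlap, and 0.26 for Tgfa, with -2.72, -2.66 and -2.58 in WT and -2.26, -2.38 and -2.53 in KO, which did not overlap.

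**Figure D3:**
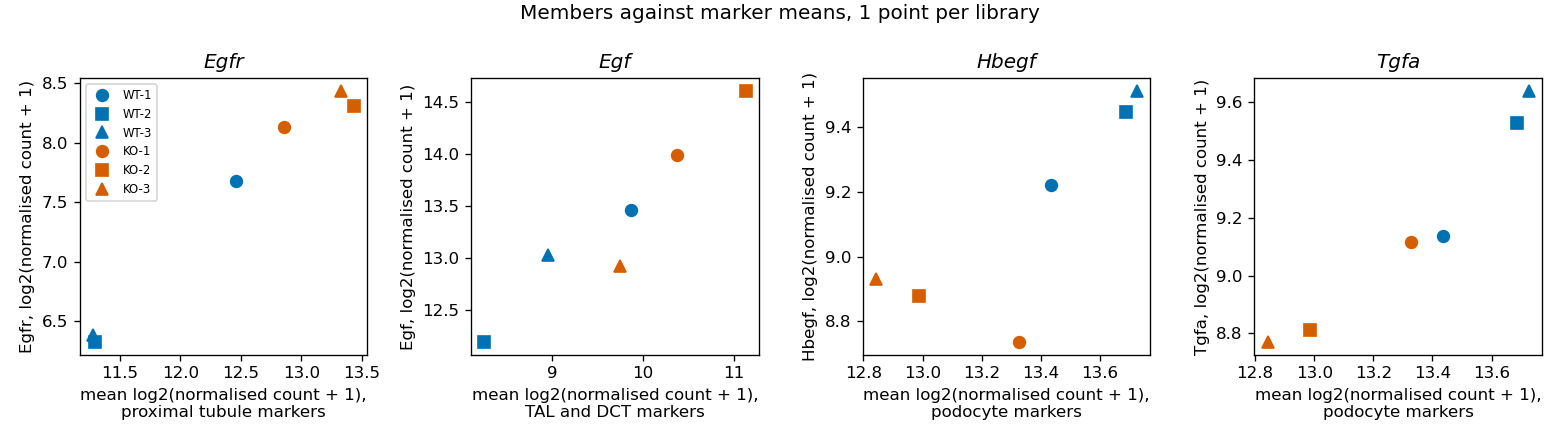
Log2(normalised count + 1) of Egfr, Egf, Hbegf and Tgfa (vertical) against the mean log2(normalised count + 1) of a marker list (horizontal), 1 point per library, WT in blue and KO in orange; TAL and DCT stand for thick ascending limb and distal convoluted tubule. Egfr follows the proximal tubule mean across both genotypes, with WT-1 between the other WT and the KO libraries, and KO-1 lies lowest for Hbegf at a podocyte mean near that of WT-1.

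When the proximal tubule mean entered the limma fit beside genotype, the genotype term was -0.044 (SE 0.30) for Egfr, 0.98 (SE 0.45) for Erbb3 and 0.12 (SE 0.26) for Erbb2. Among the ligands it was -0.35 (SE 0.21) for Hbegf, 0.02 (SE 0.87) for Egf, 0.27 (SE 0.98) for Btc and 0.10 (SE 0.18) for Tgfa. With the distal mean the genotype term was 0.84 (SE 0.44) for Egfr, 1.13 (SE 0.34) for Erbb3 and 0.05 (SE 0.13) for Erbb2. For the ligands it was -0.41 (SE 0.16) for Hbegf, -0.39 (SE 0.27) for Egf, 0.69 (SE 0.69) for Btc and -0.34 (SE 0.23) for Tgfa. No member passed in either fit, and neither did any other of the 13946 genes tested. In these fits genotype and marker mean overlap strongly over 6 libraries.

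The other genes of the pathway came from 7 lists by role, 82 genes counted once, of which 75 were tested. Of these, 7 were called higher in KO, where 13.5% of all genes were, 6 lower, where 8.58% of all genes were, and 62 did not pass, so that the called share was no larger than the 22.1% of all genes. They had a median log2 fold change of -0.07 against -0.01 for all genes. Among the 6 other ERBB ligands, only Nrg1 reached the minimum mean. Nrg1, the neuregulin that binds ERBB3 and ERBB4, had 26.1, 9.90 and 12.3 normalised counts in WT and 44.3, 45.5 and 61.2 in KO. It rose from 16.1 ± 8.72 to 50.3 ± 9.46 (SD, n = 3 each), a log2 fold change of 1.69 (SE 0.39, adjusted p = 0.0304 in limma). With the proximal tubule mean in the fit, the genotype term of Nrg1 was 0.34 (SE 0.60) and with the distal mean 1.19 (SE 0.56). Like all other genes, Nrg1 passed in neither. Nrg2 had 2.47 to 4.95 normalised counts in WT and 0 to 2.27 in KO, and Nrg4 had 2.47 to 5.43 and 6.80 to 10.6. Nrg3 and Epgn had no read in any library, and Ereg had 1 read, in KO-3.

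Of the 9 genes of ligand shedding, 1 fell and none rose (median -0.21). Over all genes tested 8.58% were called lower and 13.5% higher, so the count is no result about the list. The one that fell was Adam12, a protease that can cut HB-EGF, from 244 ± 30.9 to 168 ± 16.5 (log2 fold change -0.53, adjusted p = 0.0410 in limma). Adam17, the main sheddase of TGF-alpha, amphiregulin and HB-EGF, had 921 ± 12.3 and 803 ± 149 (adjusted p = 0.295), and Adam10, which cuts EGF and betacellulin, 1855 ± 50 and 1566 ± 91.1 (adjusted p = 0.0708), all n = 3. Of 18 genes of receptor feedback and degradation, 1 fell and none rose (median -0.19), again against 8.58% of all genes called lower. Spry1, an inhibitor of RAS-MAPK signalling, fell from 681 ± 139 to 347 ± 66.1 (log2 fold change -0.97, SE 0.20, adjusted p = 0.0286 in limma). Errfi1, the inhibitor of EGFR also called MIG6, had 2418, 1001 and 1169 normalised counts in WT and 1970, 3616 and 3296 in KO, overlapping at WT-1 and KO-1 (adjusted p = 0.0802).

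Inside the cell, 2 of 19 adaptor and RAS-MAPK genes fell and none rose (median -0.22). With 8.58% of all genes called lower, that count is near the background and no result about the list. Among them was the docking protein Gab2, from 1255 ± 165 to 841 ± 130 (SD, n = 3 each, adjusted p = 0.0328 in limma). In the STAT and PI3K-AKT branch, 1 of 11 rose and 2 fell (median -0.01), where 13.5% of all genes were called higher and 8.58% lower. The transcription factor Stat5a rose from 107 ± 14.0 to 164 ± 7.02 (adjusted p = 0.0316 in limma). Pik3r1, the regulatory subunit of PI3-kinase, fell from 2515 ± 244 to 1867 ± 46.6 (adjusted p = 0.0304).

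Of 18 transcripts known to be induced by EGF signalling, 16 were tested, 3 rose and none fell (median 0.18). Against 13.5% of all genes called higher, 3 of 16 is near the background and no result about the list. Ier3, an immediate early gene, went from 641 ± 94.1 to 1210.0 ± 157 (log2 fold change 0.92, adjusted p = 0.0286 in limma). The ETS factor Etv4 went from 7.72 ± 2.60 to 31.0 ± 11.0 (1.86, adjusted p = 0.0291) and its relative Etv5 from 166 ± 21.9 to 279 ± 21.0 (0.76, adjusted p = 0.0286), each n = 3. The classical early responders did not pass: Fos had a log2 difference of -0.04 (adjusted p = 0.966) and Egr1 of 0.66 (adjusted p = 0.314), both highest among WT in WT-1. Of 6 genes of magnesium transport, the process that EGF stimulates in the distal convoluted tubule, 2 rose and none fell (median 1.24). The share of all genes called higher was 13.5%. Cnnm2 rose from 192 ± 57.7 to 442 ± 143 (adjusted p = 0.0326 in limma), and Fxyd2, a subunit of the sodium pump, from 7025 ± 3517 to 17497 ± 3748 (adjusted p = 0.0325). The channel Trpm6 did not pass (log2 difference 1.38, adjusted p = 0.0654). Trpm6 and Pvalb are also among the distal tubule markers, whose median of 1.40 stands beside this list, and the part of those cells in it was not tested. The 13 pathway genes called by limma were also called by edgeR. None of them passed with a tubule marker mean in the fit, but neither did any other gene tested, so that is no result about these genes. Beside the proximal mean the genotype term was 0.12 for Cnnm2, -0.065 for Fxyd2, -0.14 for Adam12 and -0.21 for Spry1. It was 0.63 for Ier3, 0.48 for Etv5 and 2.17 (SE 0.86) for Etv4.

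**Figure D4:**
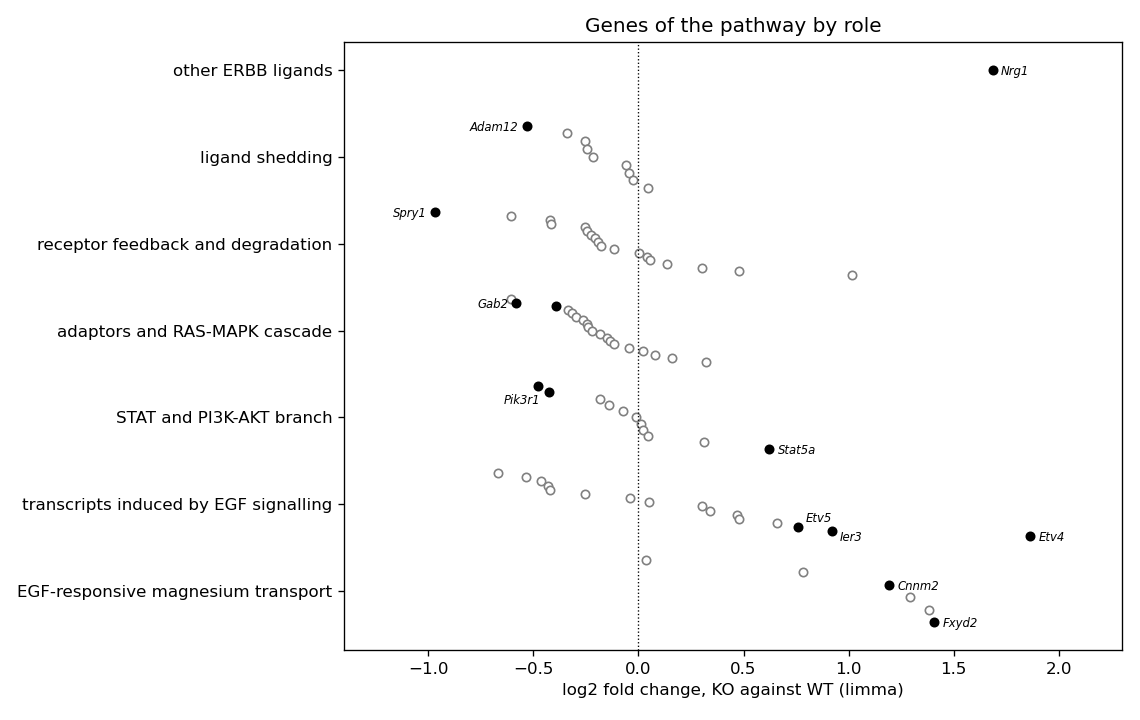
Log2 fold change of KO against WT (limma) for the tested pathway genes, 1 row per list and 1 point per gene; filled black points passed the adjusted threshold of 0.05, and those described in the text carry names. The magnesium transport genes lie at or above 0, and the adaptor and RAS-MAPK genes lie mostly below 0.

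The genes closest in pattern were taken by Pearson correlation of log2(normalised count + 1) over the 6 libraries among 10339 genes with a mean of at least 100, as a description in which genotype and library mixture are shared by all points. For Egfr they were Lrrc19 (r = 0.999), Lad1 (0.998) and Paqr9 (0.998). Lrrc19 had 1094, 405 and 414 normalised counts in WT and 1435, 1769 and 1802 in KO, with the same raised WT-1 as Egfr. For Hbegf they were Sltm (0.999), Herc2 (0.996) and Smarcb1 (0.992). Sltm had 1405, 1592 and 1633 in WT and 1072, 1166 and 1220.2 in KO, with KO-1 the lowest library in each gene. For Egf they included Prom2 (0.998) and Uroc1 (0.993), and Prom2 shared the high KO-2 and the low WT-2 of Egf, with 194, 71.3 and 130.0 normalised counts in WT and 284, 417 and 133 in KO.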

How the data were processed

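RNA of bead-isolated glomeruli from 3 KO and 3 WT mice was sequenced with a directional kit. The table deposited by the authors holds normalised counts per the file headers, a signal that equals whole reads per gene times a constant for each library. The submitters' processing notes name the build mm10, HISAT2 2.1 and featureCounts 1.6.4, besides cutadapt 1.16.5, bcl2fastq 2.19 and DESeq2 2.11.40.6. The strand setting was not given in the sources used here, nor was the treatment of multiply mapped reads. All values were whole multiples of a step per library (100% at a tolerance of 0.01), which gave whole reads.

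Groups and numbers came from the sample titles, and beyond the titles and the design text nothing says how the samples were raised or pooled, so p-values measure the spread between these samples. Symbols came from RefSeq for 25275 identifiers. Unnamed identifiers held 0.518% to 1.33% of reads. Members and gene lists were chosen with earlier results of these data known. The main test was limma 3.58.1 (R 4.3.3) with a variance trend on log2(normalised count + 1) at a mean of at least 10, genotype only, two-sided, called at a Benjamini-Hochberg adjusted p under 0.05; such fold changes understate those of low genes. The text names all members, the called genes of each list (at most 5), the other ERBB ligands, and the 3 genes closest in pattern to Egfr, Hbegf and Egf; Adam10, Adam17, Errfi1, Fos, Egr1 and Trpm6 were added after their values were seen. A few genes that this rule names are not reported here. Alternatives were edgeR 4.0.16 and DESeq2 1.42.0 on whole reads, other scalings, pseudocounts and filters, no trend, a replicate block, tubule marker means as covariates, and leaving out each library. Exon lengths came from GENCODE M21 as the union of all exons, which may overstate a transcript's length. The steps were tested on simulated data.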

Additional observations from a re-analysis of the deposited data

How the results depend on the processing

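As reported, limma called 3085 genes and 3 members. Fewer or none passed with a replicate block (0 genes, 0 members; 4284 genes at an unadjusted p under 0.05), without the variance trend (1 gene, 0 members), with the proximal tubule mean as a covariate (0 and 0; 389 genes unadjusted) and with the distal mean (0 and 0; 1646 unadjusted). DESeq2 called 3810 genes and 5 members, edgeR 2841 and 3. Leaving out single libraries gave 0 genes (without WT-3; 4053 unadjusted) to 4295 (without WT-1), with 1 without WT-2, 4 without KO-2 and 3 without KO-3, and 0 to 6 members. Upper quartile scaling moved the split to 1739 higher and 1596 lower, from 1889 and 1196, and the median of all genes to -0.07.

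The direction turned for Egfr (-0.044, SE 0.30) and Tgfa (0.10, SE 0.18) with the proximal mean and for Egf (-0.39, SE 0.27) with the distal mean. The cause was not tested. The Egf to Hbegf difference was 0.36 with the proximal and 0.02 with the distal mean. Over the 7 tested members and all settings, 92 results kept direction and side of the threshold, 24 lost a call in the same direction and 7 gained one. The 3 others are the turned directions above, among which Egfr also lost its call. The 24 losses all fall on Egfr, Erbb3 and Hbegf. The 92 include members that were not called and stayed so, and thus do not measure how stable the calls are. DESeq2 added Btc and Tgfa.

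Same-numbered libraries deviated with correlations of -0.23, -0.19 and -0.01, and no library correlated best with its own number. The numbers thus gave no sign of pairing. Deviations from means of 3 libraries cannot exclude it, since they sum to 0 within each genotype. The replicate block gave an Egf to Hbegf p of 0.25. Depth limits Erbb4 and Areg, at 0 to 11 reads per library.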
